A study of Mus musculus with 12 samples.

Results

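The respiratory chain genes described here are the transcripts of the mitochondrial genome and the nuclear genes for the subunits and assembly factors of the chain and of ATP synthase. The mitochondrial ones are all transcript clusters (the array's gene-level units) whose identifier places them on the mitochondrial genome. The nuclear ones are clusters with 1 symbol starting Nduf, Uqcr, Atp5, Cox4, Cox5, Cox6, Cox7 or Cox8, or equal to Sdha, Sdhb, Sdhc or Sdhd, with the brightest cluster kept for each symbol. This gave 123 of 65956 clusters, 30 mitochondrial and 93 nuclear. Of the mitochondrial clusters, 7 carried 1 symbol, 4 carried several and 19 carried none. A cluster with several symbols is given under all of them, and one without a symbol by its number in the platform's identifiers. The series held 12 arrays, each of bone marrow monocytes and macrophages purified from 1 mouse. All mice were Rag2-/-gamma c-/- on a BALB/c background, which leaves them without T, B and natural killer cells. Of the 4 groups of 3 mice, one had received MEC1, a single human cell line from a chronic lymphocytic leukemia, and was sampled at 21 d and 11 weeks of age, and another had no MEC1 at the same day and age. The third had received MEC1 and was sampled at 31 d and 13 weeks of age, and the last had no MEC1 at that day and age.

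The respiratory chain sits in the inner mitochondrial membrane. Complexes I and II pass electrons from NADH and succinate to ubiquinone, complex III passes them on to cytochrome c and complex IV to oxygen, and ATP synthase uses the proton gradient that complexes I, III and IV build. The mitochondrial genome encodes a few core subunits of complexes I, III and IV and of ATP synthase together with its own ribosomal and transfer RNAs, and every other subunit, all of complex II included, is made from nuclear genes. Macrophages are known to use the chain to different degrees in different states of activation.

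Values are log2 intensities, so that a difference of 1 is a 2-fold change of the probe signal. Levels of different clusters cannot be ranked against each other. Tests were run with limma on 37240 clusters above their own array's median in at least 3 arrays, and a change was called at a Benjamini-Hochberg adjusted p under 0.05 over all of them. Of the members, 28 mitochondrial and 90 nuclear clusters were tested. The arrays differed as a whole between the groups. The spiked-in hybridisation controls had array means of 11.80 to 12.04 in MEC1 mice and 10.71 to 10.87 in mice without MEC1 at 21 d, and of 12.15 to 13.18 and 10.47 to 10.70 at 31 d. The array farthest out was MEC1 31 d replicate 3. Erythroid markers, RNA of a cell type that the purification should remove, had list means of 6.48 to 9.79 with MEC1 and 9.89 to 11.39 without at 21 d, and of 5.15 to 5.87 and 10.90 to 11.43 at 31 d, and 9 of 9 measured ones fell at 31 d. Monocyte and macrophage markers had list means of 9.95 to 11.34 with MEC1 and 11.92 to 11.96 without at 31 d, and 9 of 12 fell (1, Mertk, rose). All 9 measured proliferation markers fell too, with list means of 8.67 to 10.29 with MEC1 and 11.77 to 12.08 without. Of B cell markers 5 of 6 tested rose at 31 d and 2 of 6 at 21 d, and of T and natural killer cell markers 2 of 3 at 31 d. The B cell markers were dim, with a mean level of 4.09 without MEC1 at 31 d. Dim clusters often rose at that day: 50.7% of all tested clusters with a level up to 4 without MEC1, and 22.1% at 4 to 6. At 21 d these shares were 1.63% and 1.30%. Progenitor markers fell in 5 of 6, dendritic cell markers in 4 of 7 and neutrophil markers in 6 of 14 (1 rose) at 31 d. Of all tested clusters 21.1% fell at 31 d, and 41.7% to 56.6% at control levels of 6 to 14. The marker lists were not matched by level. At 21 d, 5 of 9 erythroid, 2 of 12 monocyte and macrophage and 1 of 7 dendritic cell markers fell, against 2.51% of all tested clusters. What part the spiked-in controls, erythroid RNA, dividing cells or other cell types have in the values below was not tested. In such bulk samples fewer cells of a type and less RNA per cell cannot be told apart.

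Late in the disease, transcripts of the mitochondrial genome were lower with MEC1. At 31 d, 14 of the 28 tested mitochondrial clusters fell and 0 rose, against 43.8% of all tested clusters that changed, 21.1% falling and 22.6% rising. Their median log2 change was -1.13, against 0.04 over all tested clusters. The 14 were 6 of the 11 clusters with a symbol and 8 of the 17 tested ones without. MEC1 and control arrays did not overlap in 17 of the 28, all of them lower with MEC1, while 28.4% of all tested clusters were lower in every MEC1 array and 31.2% higher. An unadjusted p under 0.05 was reached by 16 of the 28, against 53.8% of all tested clusters. These shares of all tested clusters include many dim ones and were not taken by level. The directions depended on how arrays were scaled. After quantile normalization 7 of the 28 fell and 2 rose, with centring on the array median 18 fell, and with the level of the hybridisation controls as a covariate 0 passed and the median change of the 30 measured clusters was 1.61. The controls' level did not overlap between the groups, so that it and the presence of MEC1 cannot be told apart.

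The falls included clusters of complexes I and IV, one shared by complexes I and III, and a transfer RNA. The cluster listed under both ND4 and ND4L, which are complex I subunits, had log2 intensities of 12.40, 11.49 and 10.23 in MEC1 mice at 31 d, against 13.71, 13.69 and 13.75 in mice without MEC1. It fell by 2.34 on the log2 scale, a 5.07-fold lower signal (SE 0.51, adjusted p = 0.0054, limma), and its groups did not overlap. ND3, another subunit of complex I, had 10.63, 9.29 and 7.93 with MEC1, against 11.24, 11.80 and 11.63 without. It fell by 2.27 (SE 0.65, adjusted p = 0.0175, limma), with every MEC1 array below every control. ND2, also of complex I, had 7.80, 7.31 and 6.20 with MEC1, against 8.58, 8.73 and 8.89 without, and fell by 1.63 (adjusted p = 0.04, limma). ND3 lost its call when MEC1 31 d replicate 3 or no MEC1 31 d replicate 2 was left out (adjusted p up to 0.0644), and ND2 when any of 6 arrays was (adjusted p up to 0.153). These were MEC1 21 d replicate 2, all 3 arrays without MEC1 at 31 d, and MEC1 31 d replicates 2 and 3.

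The cluster listed under both ND5 and CYTB, subunits of complexes I and III, had 15.83, 15.75 and 13.75 with MEC1 at 31 d, against 16.92, 16.98 and 17.12 without. It fell by 1.90, a 3.72-fold lower signal (SE 0.47, adjusted p = 0.00989, limma), and the groups did not overlap. COX2, a core subunit of complex IV, had 7.93, 7.44 and 5.97 with MEC1, against 8.56, 8.99 and 8.53 without. It fell by 1.58 (SE 0.42, adjusted p = 0.0131, limma). The transfer RNA mt-Tk, which carries lysine, had 7.62, 6.73 and 6.89 with MEC1, against 9.24, 9.40 and 9.01 without, and fell by 2.14 (SE 0.55, adjusted p = 0.0115, limma). All 3 MEC1 arrays lay below all controls in these 3 clusters, and no call of these 3, nor that of the ND4 and ND4L cluster, was lost when any of the 12 arrays was left out. After quantile normalization the ND4 and ND4L, ND5 and CYTB, and ND3 clusters passed, while ND2, COX2 and mt-Tk did not (adjusted p = 0.141, 0.0629 and 0.0505). Without MEC1 31 d replicate 3 the change of COX2 was -1.01 and that of the ND5 and CYTB cluster -1.22.

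The largest falls were in clusters without a symbol. Cluster 3 had 10.40, 9.71 and 8.10 with MEC1 at 31 d, against 12.26, 12.84 and 12.80 without, a 9.38-fold lower signal (change -3.23, SE 0.67, adjusted p = 0.00441, limma). Cluster 25 changed by -3.10 (adjusted p = 0.0297, limma), cluster 12 by -2.88 (adjusted p = 0.00461), cluster 18 by -2.61 (adjusted p = 0.00558) and cluster 10 by -2.41 (adjusted p = 0.0329), and MEC1 arrays lay below controls in each. Clusters 26, 28 and 30 also fell, by 0.97, 1.13 and 2.24. Clusters 3, 12, 18 and 30 passed in all 12 fits that left out 1 array and after quantile normalization, where clusters 10, 25, 26 and 28 did not pass (adjusted p from 0.0548 to 0.121). Cluster 10 was lost without any array of mice lacking MEC1 at 31 d and without MEC1 31 d replicate 3 (adjusted p up to 0.126, and a change of -1.56 without the last), cluster 25 without any of those 3 control arrays (adjusted p up to 0.0718, and a change of -1.61 without MEC1 31 d replicate 3), cluster 26 without MEC1 31 d replicate 3 (adjusted p = 0.0585), and cluster 28 (7.79, 6.53 and 6.79 with MEC1 at 21 d, against 6.40, 6.60 and 5.64 without, change 0.82, adjusted p = 0.261) without any array (adjusted p up to 0.173) other than no MEC1 21 d replicate 3, MEC1 21 d replicate 1 and no MEC1 31 d replicate 1.

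Both ribosomal RNA clusters and COX1, near the top of the scale, did not pass at 31 d. The small ribosomal RNA mt-Rnr1 had 19.46, 19.42 and 19.37 with MEC1, against 19.55, 19.47 and 19.48 without (change -0.08, adjusted p = 0.576, limma). Every MEC1 array was below every control by a narrow margin. The cluster listed under both the large ribosomal RNA mt-Rnr2 and ND1 changed by -0.12 (adjusted p = 0.496), and its groups overlapped. COX1, the catalytic core subunit of complex IV, had 19.33, 19.27 and 18.22 with MEC1, against 19.16, 19.22 and 19.27 without (change -0.28, adjusted p = 0.378, limma). Only replicate 3 of the MEC1 arrays lay below the controls, and without it the COX1 change was 0.08. These 3 clusters stood close to the highest value in the table, 19.93, where probes may saturate. The cluster listed under ATP8, ATP6 and COX3 had 17.94, 17.39 and 15.85 with MEC1, against 18.12, 18.23 and 18.21 without (change -1.13, adjusted p = 0.0636).

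ND6, the one complex I subunit that the mitochondrial genome is known to encode on its light strand, showed another pattern across arrays. It had 12.01, 11.78 and 9.33 with MEC1 at 31 d, against 11.11, 11.19 and 11.46 without (change -0.21, SE 0.57, adjusted p = 0.771, limma). Replicates 1 and 2 of the MEC1 arrays were above all controls and replicate 3 below them, and the change was 0.64 without replicate 3. At 21 d it had 11.92, 12.78 and 11.91 with MEC1, against 11.70, 11.23 and 11.67 without, so that all MEC1 arrays were higher (change 0.67, adjusted p = 0.488). Whether ND6 differed from the other clusters was not tested. Of the 28 tested clusters 4 had positive changes at 31 d, all without a symbol: clusters 15, 19, 20 and 29, with 0.37, 0.69, 0.85 and 0.29. None of the 4 passed (adjusted p = 0.268, 0.193, 0.14 and 0.347, limma).

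**Figure D1:**
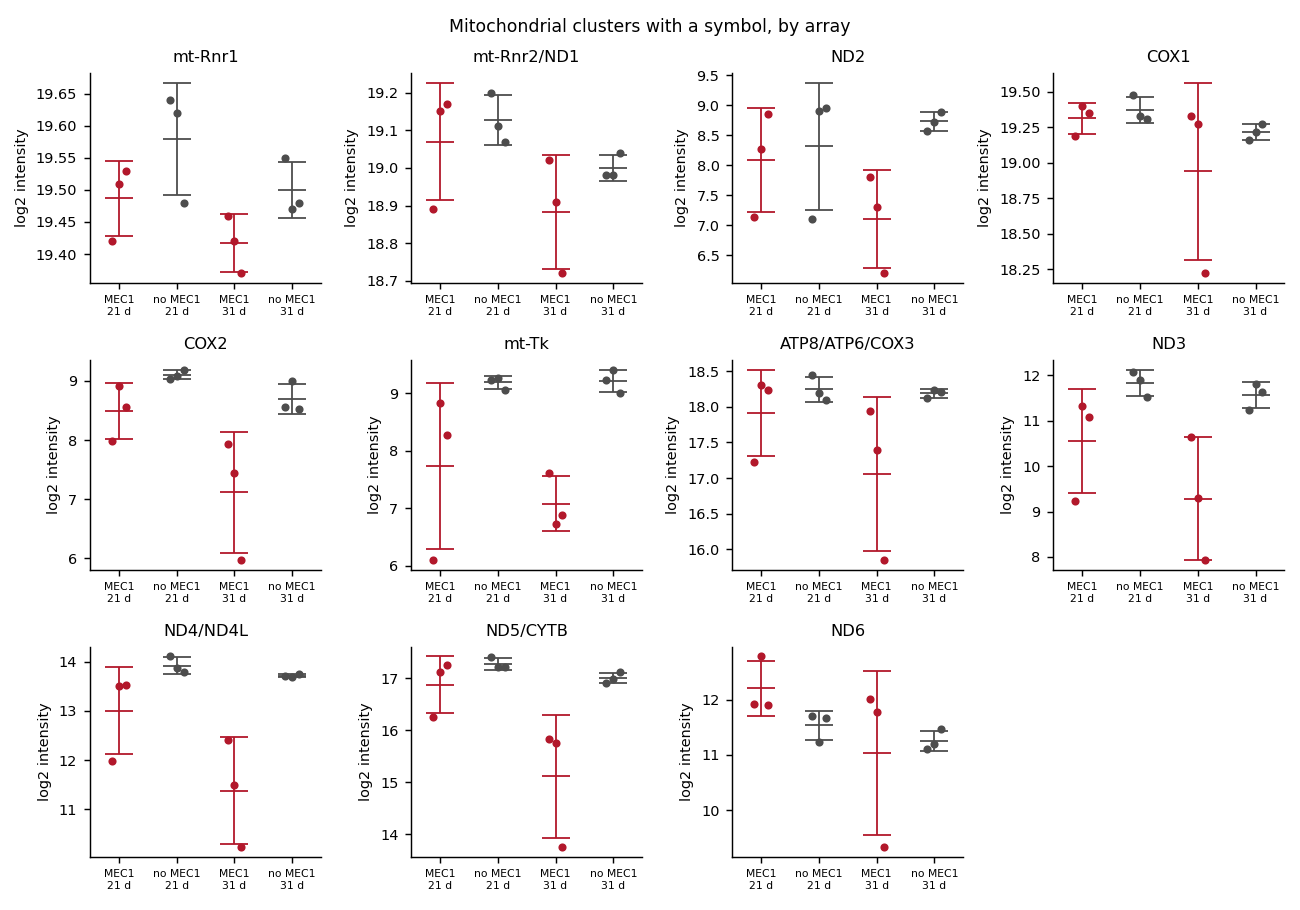
Log2 intensity (y axis, its own scale in each panel) of the 11 mitochondrial clusters with a symbol in the 4 groups (x axis). Points are arrays, 1 per mouse, and bars the mean and SD of 3. At 31 d the MEC1 arrays lay below all controls in 8 of the 11, by a narrow margin in mt-Rnr1, while they overlapped the controls in the mt-Rnr2 and ND1 cluster, COX1 and ND6.

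At 21 d, 0 of the 28 tested mitochondrial clusters passed (5 had an unadjusted p under 0.05), while 4.34% of all tested clusters passed (2.51% falling, 1.83% rising) and 23.4% had an unadjusted p under 0.05. The median change was -0.37, against 0.02 over all tested clusters. The MEC1 arrays lay below all controls in 7 of the 28 and above them in 3 (clusters 14 and 15 and ND6), against 13.7% and 14.9% of all tested clusters. Of the 5 with an unadjusted p under 0.05, clusters 15 and 20 had positive changes, 0.74 and 1.17. Array by array the low values were uneven. mt-Tk had 6.10, 8.83 and 8.27 with MEC1, against 9.24, 9.27 and 9.06 without (change -1.46, adjusted p = 0.147, limma). The ND4 and ND4L cluster had 11.98, 13.51 and 13.52 with MEC1, against 14.11, 13.87 and 13.79 without (change -0.92, adjusted p = 0.295), and ND3 had 9.23, 11.32 and 11.08, against 12.08, 11.90 and 11.51 (change -1.29, adjusted p = 0.255). Replicate 1 was the lowest MEC1 array in all 3, and all MEC1 arrays lay below the controls. The lowest change was that of cluster 10, with 7.01, 10.29 and 8.88 with MEC1 against 11.79, 11.54 and 11.18 without (change -2.78, adjusted p = 0.0759). Counts of 2 mitochondrial calls came with MEC1 21 d replicate 3 or MEC1 31 d replicate 3 left out.

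Changes on these arrays depended on how bright a cluster was, so the members were set beside all tested clusters of the same level in control mice, in steps of 2 on the log2 scale. Between control levels of 8 and 14, 12 mitochondrial clusters had a median change of -2.31 at 31 d, against -0.98 over all 6685 tested clusters of those levels. Of the 12, 11 lay below the median of their own step, and ND6 was the exception. By step, the mitochondrial median was -1.88 against -0.93 at levels of 8 to 10, -2.27 against -1.06 at 10 to 12, and -3.10 against -0.98 at 12 to 14, with 6, 3 and 3 mitochondrial clusters. Outside that range the medians lay closer together at most levels. Above a level of 16 the median of 5 mitochondrial clusters was -0.28, against -0.34. At 14 to 16 it was -0.78 against -0.75 with 2 mitochondrial clusters, and at 6 to 8 -0.50 against -0.59 with 4. At 4 to 6 it was -0.19 against 0.14 with 4, and the 1 cluster at a level up to 4 changed by 0.37, against 0.54. At 6 to 8, 14 to 16 and above 16, the falls were 2 of 4, 1 of 2 and 1 of 5, against 41.7%, 36.9% and 20.4% of all tested clusters. At 4 to 6 it was 0 of 4, against 7.10%. Over all 28 the median distance from the step's median was -0.59, and 20 lay below it.

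The same clusters were also taken array by array. The median deviation of the 12 from the mean of the day's controls was -1.23, -2.16 and -3.36 in the MEC1 arrays at 31 d, against -0.08, 0.06 and 0.05 in the control arrays. For all tested clusters of those levels the MEC1 arrays had -0.63, -0.75 and -1.48. At 21 d the 12 mitochondrial clusters of those levels had -2.44, -0.86 and -0.47 in the MEC1 arrays, against -0.04, 0.15 and 0.03 in the controls, while all clusters of those levels had -0.71, -0.32 and -0.12 in the MEC1 arrays. The mitochondrial median was thus below that of all clusters of its level in each of the 6 MEC1 arrays. Their median change at 21 d was -1.30, against -0.39 over all 6792 tested clusters of those levels, and -0.66 against -0.23 without MEC1 21 d replicate 1. At 31 d it was -1.61 against -0.70 without MEC1 31 d replicate 3 and -1.78 against -0.36 after quantile normalization, with 11 of 12 below their step's median in both. The control arrays lay near 0 by construction, since deviations were taken from their own mean. The range of levels was chosen after the values were seen, so these differences carry no test. The MEC1 array with the lowest value at 31 d, replicate 3, also had the brightest hybridisation controls, 13.18, and at 21 d replicate 1 had both the lowest value and the brightest controls of its group, 12.04.

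**Figure D2:**
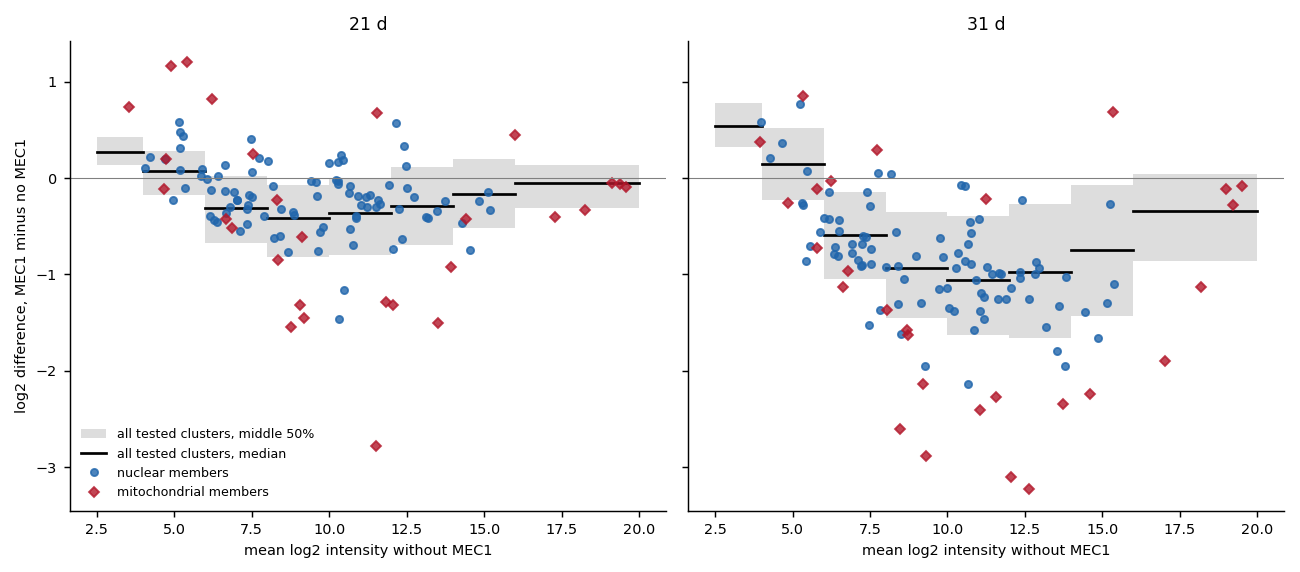
Log2 difference of MEC1 minus no MEC1 (y axis) against the mean log2 intensity without MEC1 (x axis) at 21 d and 31 d, for the tested mitochondrial members (red diamonds) and nuclear members (blue circles). Black lines give the median and grey bands the middle 50% of all tested clusters in each step. At 31 d, 11 of the 12 mitochondrial members between 8 and 14 lay below the black lines, and nuclear members scattered around them.

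**Figure D3:**
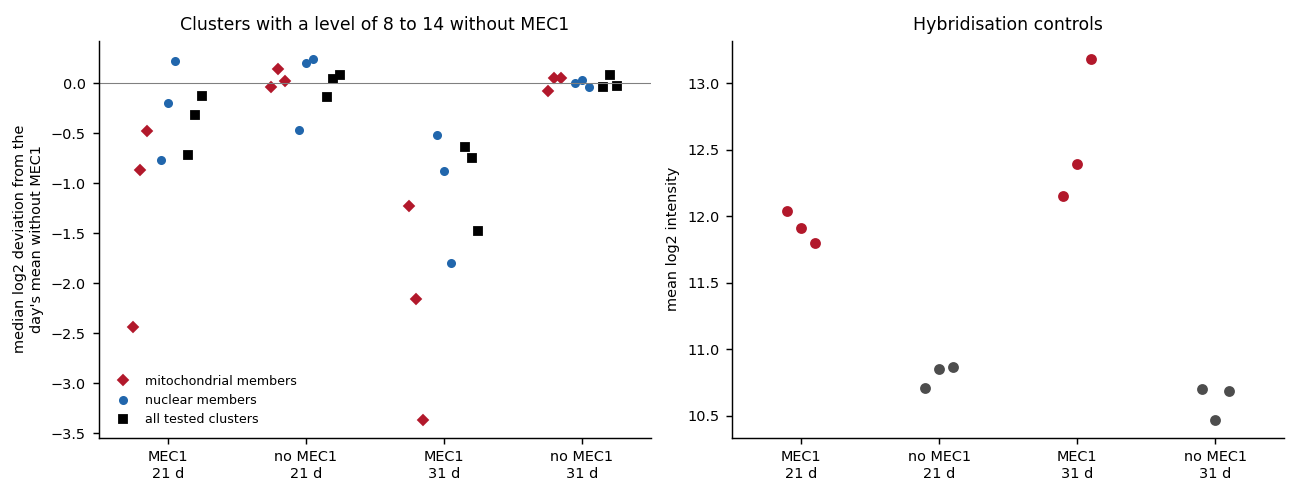
Left, the median log2 deviation from the day's control mean (y axis) in each array, for mitochondrial members, nuclear members and all tested clusters with a control level of 8 to 14. Right, the mean log2 intensity of the hybridisation controls in each array. The mitochondrial medians of the MEC1 arrays at 31 d lay between -1.23 and -3.36, and the array with the lowest one had the brightest hybridisation controls.

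Nuclear respiratory chain genes were lower at 31 d as well, across all 5 complexes. Of the 90 tested, 48 fell and 2 rose, or 53.3% falls against 21.1% of all tested clusters. The median change was -0.89 and 83 of 90 changes were negative, against 48.1% of all tested clusters. MEC1 arrays lay below all controls in 72 of the 90 and above them in 4, against 28.4% and 31.2% of all tested clusters. Those shares include many dim clusters and were not taken by level. After quantile normalization 10 fell and 6 rose, with centring 75 fell and 0 rose, and with the hybridisation-control covariate 0 passed and the median change of the 93 measured genes was 0.77. The count rested on few arrays: 15 of the 90 were called without MEC1 31 d replicate 3, and 25, 20 and 28 without replicate 1, 2 or 3 of the mice lacking MEC1 at 31 d. Each of 12 nuclear genes passed in all 12 fits that left out 1 array: Atp5a1, Atp5d, Cox6b2, Cox8a, Ndufa13, Ndufa3, Ndufa7, Ndufb5, Ndufs1, Ndufs6, Ndufs7 and Sdha. Of these 12, Atp5a1, Cox6b2, Cox8a, Ndufs6 and Ndufs7 also passed after quantile normalization, while the other 7 did not (adjusted p from 0.0588 to 0.45), and of all 50 nuclear calls 11 passed there too, those of Atp5c1-ps, Atp5o, Ndufa2, Ndufa9, Ndufc1 and Uqcrc1 besides.

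Set beside clusters of their own level, the nuclear genes differed little from them. Their median distance from the step's median was -0.09 at 31 d, with 53 of 90 below it, and 0.08 at 21 d, with 33 of 90 below. Between levels of 8 and 14 the 51 nuclear clusters had a median change of -1.03, against -0.98 over all tested clusters of those levels. In those 3 steps 69.2%, 60.0% and 61.5% of the nuclear members fell, against 56.6%, 56.6% and 48.0% of all tested clusters, and in the step of 6 to 8 it was 54.2% against 41.7%. Most of the tested clusters were dimmer than the nuclear members: 8200 had a control level up to 4 and 14568 one of 4 to 6, with median changes of 0.54 and 0.14, and 10 nuclear members lay there.

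Of complex I, the entry point for electrons from NADH, 22 of 33 nuclear subunits fell (66.7%) and 0 rose (median change -0.91). Of all tested clusters 21.1% fell, and 41.7% to 56.6% at control levels of 6 to 14, where most of the 33 lay. The median changes of all tested clusters in those steps were -0.59 to -1.06. Ndufs1, which carries iron-sulfur clusters of the electron path, had 7.56, 7.39 and 7.50 with MEC1 at 31 d, against 8.37, 8.38 and 8.44 without. It fell by 0.91 (SE 0.25, adjusted p = 0.0139, limma), with narrow groups that did not overlap, but did not pass after quantile normalization (change -0.24, adjusted p = 0.45). Ndufs7, the iron-sulfur subunit next to the ubiquinone site, had 6.24, 6.25 and 5.36 with MEC1, against 7.61, 7.51 and 7.30 without, a 2.87-fold lower signal (change -1.52, SE 0.30, adjusted p = 0.00377, limma). Ndufv1, the flavin subunit that takes electrons from NADH, had 10.15, 9.90 and 9.91 with MEC1, against 10.68, 10.56 and 10.77 without, and did not pass (change -0.68, adjusted p = 0.106), although no MEC1 array reached the controls. The largest falls among subunits were those of the accessory subunits Ndufa2 and Ndufa9. Ndufa2 had 12.78, 12.61 and 10.16 with MEC1, against 13.60, 14.10 and 13.70 without (change -1.95, adjusted p = 0.0366, limma), and Ndufa9 had 12.43, 12.01 and 10.75, against 13.62, 13.26 and 13.70 (change -1.80, adjusted p = 0.0157, limma). Replicate 3 was the lowest MEC1 array in both. Without it their changes were -1.11 and -1.31 and neither passed (adjusted p = 0.12 and 0.0597), and Ndufa2 was also lost without any control array of that day. Ndufa6 and Ndufv2 had changes of 0.05 and 0.04. Of the assembly factors carrying the selected symbols, 5 of 9 fell (55.6%): Ndufaf1, Ndufaf2, Ndufaf7, Atp5sl and Cox7a2l. Most of the 9 lay at control levels of 6 to 8, where 41.7% of all tested clusters fell.

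Complex II, succinate dehydrogenase, is the one complex with no mitochondrially encoded subunit and is also an enzyme of the tricarboxylic acid cycle. Of its 4 subunits 3 fell at 31 d, against 21.1% of all tested clusters. At control levels of 6 to 12, where the 4 lay, 41.7% to 56.6% of all tested clusters fell. The flavoprotein Sdha had 9.26, 8.84 and 8.47 with MEC1, against 10.11, 9.80 and 10.07 without, a 2.20-fold lower signal (change -1.14, SE 0.24, adjusted p = 0.00519, limma). After quantile normalization Sdha, Sdhc and Sdhd did not pass (adjusted p = 0.139, 0.238 and 0.0996). The membrane anchor Sdhd had 7.69, 7.27 and 5.66 with MEC1, against 8.72, 8.28 and 8.47 without (change -1.62, SE 0.47, adjusted p = 0.0199, limma), and the other anchor, Sdhc, had 6.60, 6.32 and 6.05, against 7.40, 6.85 and 7.44 (change -0.91, adjusted p = 0.0249, limma). The iron-sulfur subunit Sdhb had 10.12, 10.07 and 8.95 with MEC1, against 10.50, 10.64 and 10.57 without, and did not pass (change -0.86, adjusted p = 0.0752). No MEC1 array overlapped a control in any of the 4, while 28.4% of all tested clusters were lower in every MEC1 array. Sdhd lost its call without MEC1 31 d replicate 3 or no MEC1 31 d replicate 1 (adjusted p up to 0.0579), with a change of -1.01 without the MEC1 array, and Sdhc without any of 4 arrays (MEC1 31 d replicates 2 and 3, no MEC1 31 d replicates 1 and 3, adjusted p up to 0.0876).

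Of complex III, 4 of 8 nuclear subunits fell, against 21.1% of all tested clusters. Most of the 8 lay at control levels of 6 to 14, where 41.7% to 56.6% of all tested clusters fell. The core protein Uqcrc1 had 12.40, 11.89 and 10.66 with MEC1, against 13.23, 13.10 and 13.25 without (change -1.54, SE 0.43, adjusted p = 0.0162, limma). Its adjusted p was 0.0526 without MEC1 31 d replicate 3. The Rieske iron-sulfur protein Uqcrfs1 had 7.23, 7.29 and 7.22 with MEC1, against 7.38, 7.30 and 7.48 without, with arrays of both groups within a narrow span (change -0.14, adjusted p = 0.414). After quantile normalization its change was 0.51 and passed (adjusted p = 0.0471). Uqcr11, Uqcrq and Uqcrb were the other falls, by 1.37, 1.26 and 0.88. Each lost its call without MEC1 31 d replicate 3 and without no MEC1 31 d replicate 1 or 2. Uqcrb lost it without no MEC1 31 d replicate 3 as well, and Uqcrq in 8 of the 12 fits, those without any control of 31 d, MEC1 31 d replicate 2 or 3, no MEC1 21 d replicate 2 or 3, or MEC1 21 d replicate 2. The adjusted p was up to 0.124, 0.187 and 0.106. After quantile normalization none of the 3 passed (adjusted p = 0.138, 0.153 and 0.11).

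Complex IV, cytochrome c oxidase, had 3 calls among 11 nuclear subunits, all of them falls. That was 27.3%, against 48.0% to 56.6% of all tested clusters at control levels of 8 to 14, where most of the 11 lay. All 11 changes were negative (median -0.98, against -0.98 over all tested clusters of those levels). The groups did not overlap in 9 of the 11, while 28.4% of all tested clusters were lower in every MEC1 array. Cox8a had 12.92, 12.60 and 11.24 with MEC1, against 13.66, 13.49 and 13.60 without (change -1.33, SE 0.36, adjusted p = 0.0146, limma). Cox4i1, the regulatory subunit of most tissues, had 10.52, 10.15 and 9.01 with MEC1, against 11.16, 11.07 and 11.02 without (change -1.19, SE 0.36, adjusted p = 0.0216, limma), and Cox6a1 was the third, falling by 0.92. Cox4i1 lost its call without MEC1 31 d replicate 3 or no MEC1 31 d replicate 1 or 2 (adjusted p up to 0.0628), and Cox4i1 and Cox6a1 did not pass after quantile normalization (adjusted p = 0.0804 and 0.349). Without that MEC1 array the changes of Cox8a and Cox4i1 were -0.82 and -0.75. Cox5b changed by -0.99 and Cox7a2 by -1.10, with adjusted p of 0.0689 and 0.0729. Cox5a had 12.53, 12.25 and 11.73 with MEC1, against 12.54, 12.24 and 12.42 without (change -0.23, adjusted p = 0.543), and Cox6c 7.32, 7.22 and 7.09, against 7.52, 7.49 and 7.48 (change -0.29, adjusted p = 0.111). Cox5a thus overlapped between groups, while the Cox6c arrays did not.

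Of ATP synthase, 9 of 16 nuclear subunits fell (56.2%, median change -0.90), against 21.1% of all tested clusters. At control levels of 6 to 14, where most of the 16 lay, 41.7% to 56.6% of all tested clusters fell. Their median changes by step were -0.59 to -1.06. Atp5a1, the alpha subunit of the catalytic head, had 13.21, 12.90 and 12.27 with MEC1, against 13.83, 13.79 and 13.85 without, a 2.04-fold lower signal (change -1.03, SE 0.24, adjusted p = 0.00801, limma). Atp5b, the catalytic beta subunit, had 11.00, 10.66 and 9.64 with MEC1, against 11.40, 11.45 and 11.45 without (change -1, SE 0.33, adjusted p = 0.03, limma). The controls of both lay close together and above all MEC1 arrays. Atp5b lost its call without MEC1 31 d replicate 3 or any control of that day (adjusted p up to 0.0956) and after quantile normalization (adjusted p = 0.107), and its change was -0.60 without that MEC1 array. Atp5mpl, a small membrane subunit, had the largest fall of the complex, with 14.10, 13.64 and 11.87 with MEC1, against 14.99, 14.55 and 15.04 without (change -1.66, adjusted p = 0.0476, limma), a call that 8 of the 12 fits without 1 array lost (adjusted p up to 0.183), all but those without replicate 1 of either group at 21 d, MEC1 21 d replicate 3 or MEC1 31 d replicate 1, and a change of -0.99 without MEC1 31 d replicate 3. Atp5l and Atp5j overlapped between groups, at -0.27 and -0.14, and the cluster carrying the symbol Atp5l lies on chromosome 5 while its gene is on chromosome 9.

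**Figure D4:**
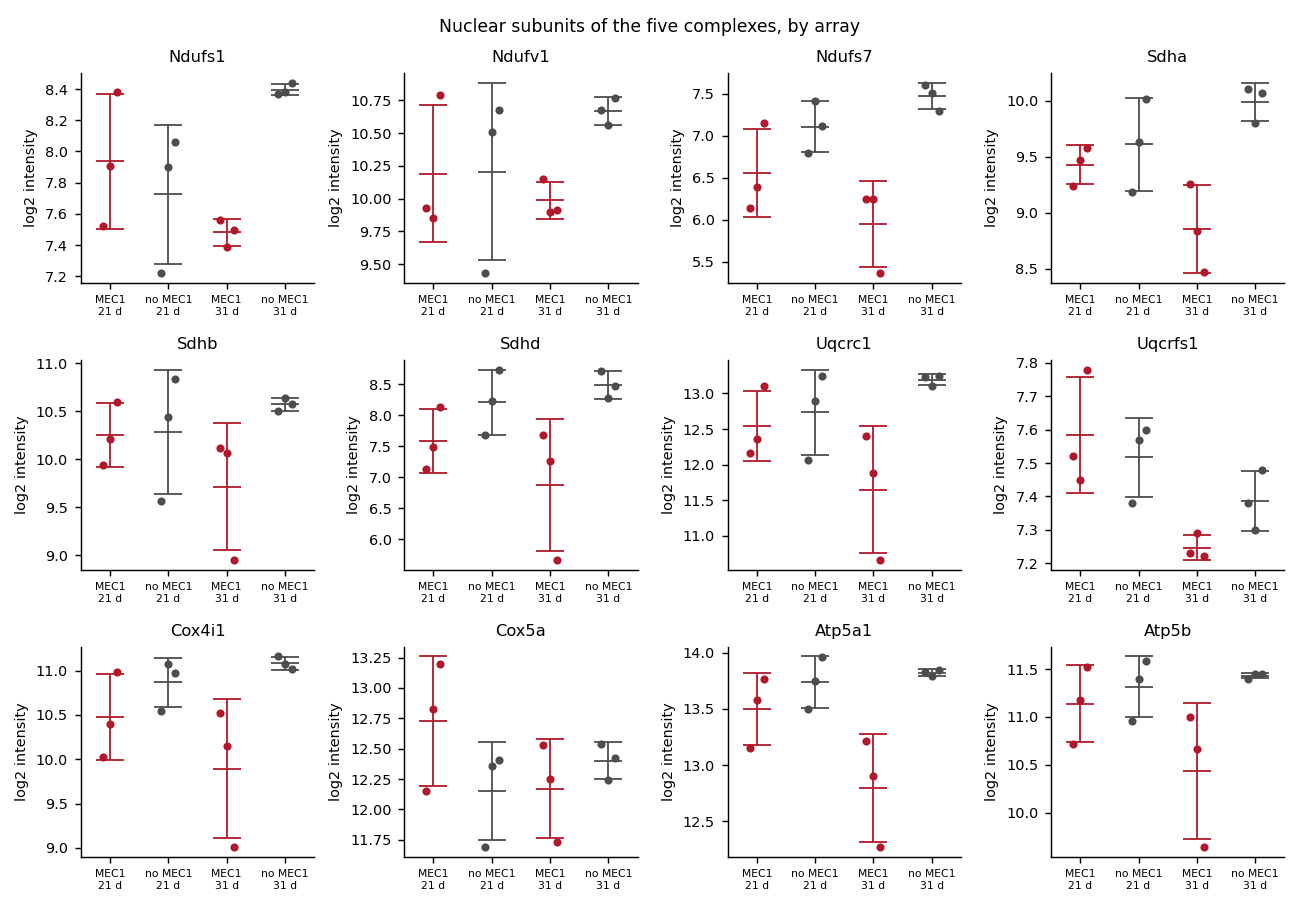
Log2 intensity (y axis, its own scale in each panel) of 12 nuclear subunits of complexes I, II, III and IV and of ATP synthase in the 4 groups (x axis). Points are arrays, 1 per mouse, and bars the mean and SD of 3. At 31 d the MEC1 arrays lay below the controls in all panels except Cox5a. MEC1 31 d replicate 3 was the lowest array in all panels except Ndufs1, Ndufv1 and Cox5a.

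Second isoforms of chain subunits, which are known from heart and skeletal muscle, testis, lung or cells short of oxygen, were mostly dim. Cox8b had 2.88, 2.96 and 3.01 with MEC1 at 31 d, against 2.89, 2.73 and 2.86 without, and Ndufa4l2 had 2.66, 2.66 and 3.00, against 2.70, 2.66 and 2.66. Both, like Cox7b2, were too dim to be tested, and in neither of the first 2 did the groups separate. Cox7b2 had 4.01, 4.13 and 4.09 with MEC1 at 31 d, all above the controls at 3.34, 3.66 and 3.72. Its difference was 0.50, against a median change of 0.54 over all tested clusters with a control level up to 4. Cox6b2, the testis form of Cox6b, was brighter. It had 7.38, 7.20 and 7.43 with MEC1 at 31 d, against 9.21, 9.35 and 9.31 without, a 3.87-fold lower signal (change -1.95, SE 0.30, adjusted p = 0.00107, limma), the smallest adjusted p of any nuclear member. At 21 d its values were 7.68, 7.71 and 8.36 with MEC1, against 7.91, 9.04 and 9.10 without (change -0.77, adjusted p = 0.155). Cox8c, another testis form, had 4.35, 4.36 and 5 with MEC1 at 31 d, against 4.07, 4.04 and 3.87 without, and rose by 0.58 (adjusted p = 0.0254, limma). All tested clusters with a control level up to 4, where Cox8c lay, had a median change of 0.54. Its call was lost without MEC1 31 d replicate 3 or no MEC1 31 d replicate 2 or 3 (adjusted p up to 0.0821), and its change was 0.36 without that MEC1 array. Cox4i2, the lung form, had 5.04, 4.79 and 5.22 with MEC1, against 4.55, 4.67 and 4.74 without (change 0.36, adjusted p = 0.0778), and the muscle form Cox6a2 changed by 0.21 (adjusted p = 0.277).

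Gene copies need caution, since their probes can pick up the parent gene. The pseudogene Atp5c1-ps had 6.21, 5.97 and 5.84 with MEC1 at 31 d, against 5.54, 5.36 and 4.80 without, and rose by 0.77 (adjusted p = 0.024, limma), a call lost without MEC1 31 d replicate 1 or no MEC1 31 d replicate 3 (adjusted p up to 0.0913). Ndufb4b, a copy of the complex I gene Ndufb4, had 9.74, 8.72 and 7.06 with MEC1, against 10.42, 11.23 and 10.29 without (change -2.14, SE 0.75, adjusted p = 0.0389, limma), the largest fall among nuclear members. Of the 12 fits without 1 array, 6 lost that call (adjusted p up to 0.152), those without MEC1 21 d replicate 2, any control of 31 d, or MEC1 31 d replicate 2 or 3, and its change was -1.42 without the last.

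**Figure D5:**
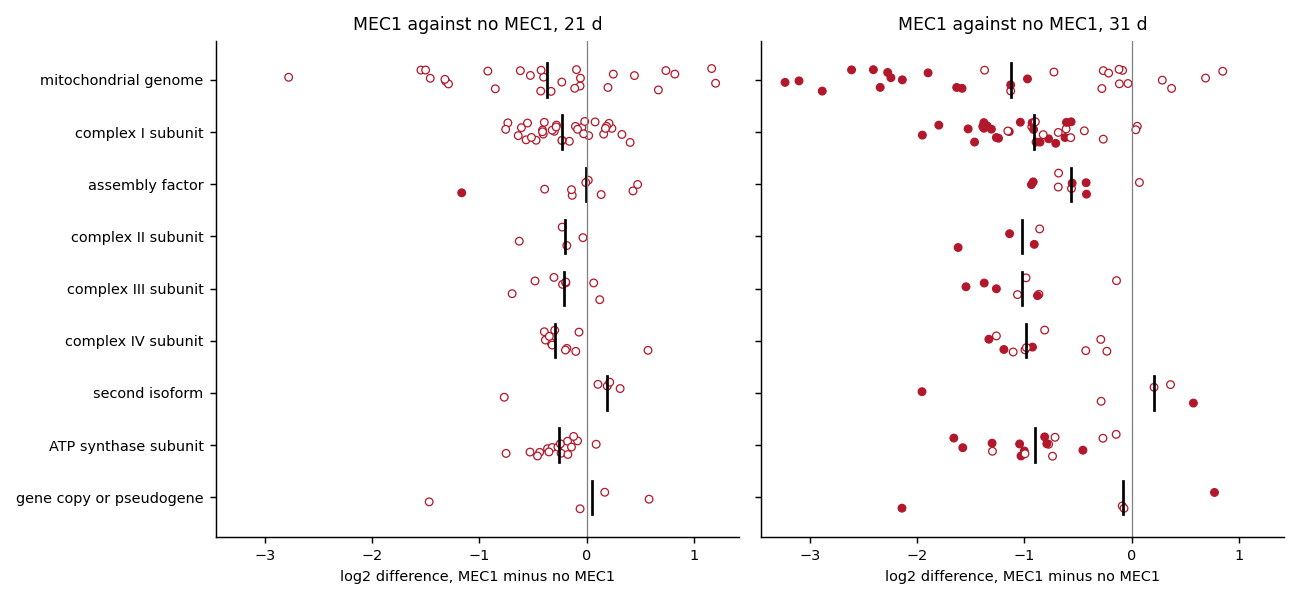
Log2 difference of MEC1 minus no MEC1 (x axis) at 21 d and 31 d for the tested members by role (y axis). Filled points passed at an adjusted p under 0.05, open points did not, and black bars give each role's median. At 31 d the medians of complexes I, II, III, IV and ATP synthase lay between -0.90 and -1.02, and mitochondrial clusters reached from -3.23 to 0.85.

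At 21 d, 1 of 90 tested nuclear genes passed, against 4.34% of all tested clusters, and 5 had an unadjusted p under 0.05. This was Cox7a2l, known as a factor that joins complexes III and IV into supercomplexes. It had 9.11, 9.41 and 9.45 with MEC1, against 9.89, 10.92 and 10.65 without, and fell by 1.16 (SE 0.28, adjusted p = 0.046, limma). At 31 d it had 9.50, 9.57 and 8.97 with MEC1, against 10.36, 10.59 and 9.89 without (change -0.93, adjusted p = 0.0228, limma). MEC1 arrays were below controls on both days. The 21 d call was lost in 10 of 12 fits that left out 1 array (adjusted p up to 0.146), namely all but those without no MEC1 21 d replicate 1 or MEC1 31 d replicate 3, and the 31 d call without MEC1 31 d replicate 3 or no MEC1 31 d replicate 1 or 2 (adjusted p up to 0.0861). The median change of the 90 at 21 d was -0.20. MEC1 arrays lay below all controls in 3 of the 90 and above them in 3, against 13.7% and 14.9% of all tested clusters. Sdha overlapped between the groups, with 9.24, 9.47 and 9.58 with MEC1 at 21 d, against 9.19, 9.63 and 10.02 without (change -0.18, adjusted p = 0.661, limma).

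How far mitochondrial and nuclear clusters differed over all measured members depended on how their medians were taken. The median change of the 30 mitochondrial clusters minus that of the 93 nuclear ones was -0.17 at 31 d (-1.05 and -0.88) and -0.09 at 21 d (-0.28 and -0.19). Array by array, the difference of both medians was 0.04, -0.13 and -0.64 in the MEC1 arrays at 31 d, against -0.06, -0.06 and 0.12 in the controls, so that replicates 2 and 3 lay below the controls, replicate 3 by far the most. At 21 d it was -0.20, 0.11 and -0.21 in the MEC1 arrays, against 0.39, -0.10 and -0.24 in the controls. These differences of changes, -0.17 and -0.09, were smaller than the SD between replicates, 0.26 and 0.27. With the median level of each set taken in each array, the mitochondrial minus nuclear difference was -1.40, -1.30 and -1.48 in the MEC1 arrays at 31 d, against -1.19, -0.27 and -0.76 in the controls, lower in every MEC1 array and by 0.65 on average. At 21 d it was -0.25, -0.30 and -0.70 in the MEC1 arrays, against 0.01, -0.45 and -0.47 in the controls, with overlapping groups.

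No member had a MEC1 difference that itself differed between the days: 0 of 118 passed, against 0.00269% of all tested clusters, and 15 had an unadjusted p under 0.05, against 12.9%. In mice without MEC1, 31 d against 21 d, 0 of 118 passed, against 0.00806% of all tested clusters, and 3 had an unadjusted p under 0.05, against 6.54%. Late falls beside absent calls at 21 d are therefore not shown to be differences between the days.

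Other genes of the mitochondrion that serve the chain had negative median changes at 31 d. Of the tested genes of 6 lists 0 rose, and the last list, nuclear regulators, had a median change of 0.12. Of all tested clusters 21.1% fell. By control level the share was 41.7% at 6 to 8, 56.6% at 8 to 10 and at 10 to 12, and 48.0% at 12 to 14. The median changes at those levels were -0.59, -0.93, -1.06 and -0.98. The lists were not matched by level, and their counts and medians were not tested against these values. Among further chain subunits and electron carriers, 7 of 10 fell (median change -0.77). They included Higd2a, an assembly factor of complex IV, with 13.63, 13.42 and 12.12 with MEC1, against 14.94, 15.21 and 14.87 without (change -1.95, adjusted p = 0.00641, limma), and Etfdh, which passes electrons from fatty acid oxidation to ubiquinone, at -1.03, which did not pass after quantile normalization (adjusted p = 0.0997). Of chain assembly factors 18 of 31 fell (median -0.81), among them the ATP synthase factor Atpaf2 at -1.19 and the complex IV factor Cox20 at -1.47. Of tricarboxylic acid cycle enzymes 12 of 17 fell (median -1.06), among them Dlst and Ogdh of the 2-oxoglutarate dehydrogenase complex at -1.57 and -1.43 and by Idh3a at -1.50. Of mitochondrial ribosomal proteins 28 of 77 fell (36.4%, median -0.62), and 76 of 77 changes were negative. Among the named ones was Mrpl37, with 7.58, 7.22 and 5.75 with MEC1, against 9.40, 9.37 and 9.40 without (change -2.54, adjusted p = 0.00393, limma).

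The machinery that copies and transcribes mitochondrial DNA and processes its RNA was measured in the same cells, and 16 of 27 tested genes fell (median change -0.80), or 59.3% against the shares by level given above. Polg2, the accessory subunit of the mitochondrial DNA polymerase, was the only one of the 27 to pass at both days. At 31 d it had 5.71, 5.06 and 4.77 with MEC1, against 7.16, 8.10 and 7.11 without (change -2.28, SE 0.29, adjusted p = 0.000559, limma). At 21 d it had 5.16, 5.21 and 5.43 with MEC1, against 6.60, 6.47 and 6.59 without (change -1.29, adjusted p = 0.0351, limma), and the groups were far apart on both days. Lrpprc, which stabilises mitochondrial messenger RNAs, fell by 0.98 (adjusted p = 0.00103, limma), with 6.00, 6.05 and 5.67 with MEC1, against 6.89, 6.81 and 6.95 without. The RNA-binding protein Fastkd3 fell by 0.95 (adjusted p = 0.00343). The transcription factors Tfam and Tfb2m and the polymerase Polrmt, picked after their values were seen, changed by -0.80, -1.53 and -0.27, with adjusted p of 0.00534, 0.00989 and 0.145.

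Of the nuclear regulators of mitochondrial genes 3 of 7 tested fell and 0 rose, or 42.9%, against 43.8% of all tested clusters that changed in either direction and 21.1% that fell, and the median change of the 7 was 0.12. Nrf1, a transcription factor known to act on many respiratory chain promoters, had 6.18, 6.33 and 6.08 with MEC1 at 31 d, against 7.15, 7.45 and 7.41 without (change -1.14, SE 0.20, adjusted p = 0.00229, limma). Gabpa, the DNA-binding subunit of another such factor, had 7.87, 7.26 and 7.22 with MEC1, against 8.40, 8.40 and 8.48 without (change -0.98, SE 0.17, adjusted p = 0.00211, limma). The coactivator Pprc1 fell by 0.58 (adjusted p = 0.0127). MEC1 arrays lay below the controls in all 3. Gabpa and Pprc1 did not pass after quantile normalization (adjusted p = 0.189 and 0.26), nor Pprc1 without no MEC1 31 d replicate 2 (adjusted p = 0.0539).

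Promoters of the nuclear members were searched for the letters that both factors are known to bind. RefSeq promoter windows (build GRCm38.p6, 250 bases before to 50 after the gene's start) were matched for 74 of the 93 nuclear members. The NRF1 motif, read as the half-sites GCGCA and GCGC with any base between them and searched on both strands, was in the windows of 16 of the 74 members (21.6%), against 1402 of 27025 genes (5.19%). It was in 9 of 39 members that fell at 31 d (23.1%) and in 7 of the 35 others. The GABP motif CCGGAAGT, on both strands, was in 5 of the 74 (6.76%), against 4.31% of all genes, namely 4 of the 39 that fell (10.3%) and 1 of the 35 others (2.86%). The pair of motifs did not overlap in the stretches printed here. A match says that these letters are present and nothing of binding in these cells. The 180 bases before the start are given for 4 genes that fell and hold the NRF1 motif before their start: Sdha at chr13:74350241-74350420, Sdhd at chr9:50603850-50604029, the complex IV gene Cox6a1 at chr5:115348959-115349138 and the ATP synthase stalk gene Atp5h at chr11:115419920-115420099, all on the minus strand. Capitals mark motifs, the last capitals of Atp5h being the GABP motif read on the other strand.
Sdha: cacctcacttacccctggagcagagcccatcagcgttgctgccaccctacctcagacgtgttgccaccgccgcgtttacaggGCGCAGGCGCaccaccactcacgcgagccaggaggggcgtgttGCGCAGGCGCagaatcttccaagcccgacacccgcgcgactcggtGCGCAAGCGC
Sdhd: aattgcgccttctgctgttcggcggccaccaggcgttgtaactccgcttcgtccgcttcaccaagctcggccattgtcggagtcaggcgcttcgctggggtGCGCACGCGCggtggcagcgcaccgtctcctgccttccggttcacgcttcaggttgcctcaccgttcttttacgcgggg
Cox6a1: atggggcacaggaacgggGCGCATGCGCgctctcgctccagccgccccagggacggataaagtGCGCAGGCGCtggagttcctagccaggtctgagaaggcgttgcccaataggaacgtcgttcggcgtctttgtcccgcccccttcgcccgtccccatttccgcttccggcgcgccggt
Atp5h: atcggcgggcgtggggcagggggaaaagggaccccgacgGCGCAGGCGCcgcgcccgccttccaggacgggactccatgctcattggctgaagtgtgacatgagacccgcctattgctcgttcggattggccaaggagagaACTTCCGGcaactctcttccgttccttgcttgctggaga
Sdha held the NRF1 motif at 3 places, 98, 55 and 10 bases before its start, and fell by 1.14. Sdhd held it once, 79 bases before, and fell by 1.62. Cox6a1 held it 162 and 117 bases before its start and fell by 0.92 (adjusted p = 0.0454, limma), and Atp5h held it 141 bases before and fell by 1.30 (adjusted p = 0.0173, limma). Cox6a1 lost its call in 7 of 12 fits without 1 array (adjusted p up to 0.137), those without no MEC1 21 d replicate 3, MEC1 21 d replicate 2, any control of 31 d, or MEC1 31 d replicate 2 or 3. Atp5h lost it without no MEC1 31 d replicate 2 (adjusted p = 0.0609), and its change was -0.84 without MEC1 31 d replicate 3.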

How the data were processed

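Biotin-labelled total RNA from 12 mice was hybridised to mouse whole-transcriptome arrays, with an array for each animal. The authors deposited log2 intensities per transcript cluster. They had been made with Affymetrix Expression Console and by RMA, per the submitters' processing notes, without versions. Depth does not apply to arrays, whose number limits the precision. Of 72688 features, 6732 controls were left out. A linear model with 4 group means over all 12 arrays was fitted by limma (3.58.1, R 4.3.3) to the 37240 clusters above their own array's median in at least 3 arrays, with empirical Bayes and Benjamini-Hochberg adjustment over all of them, two-sided. The fit was tested on simulated data.

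The members, gene lists and tests were chosen with earlier results of these data known. The genes described by name were the mitochondrial clusters with a symbol, subunits of complex II, lead subunits and second isoforms, up to 6 largest rises and falls among members that passed, and up to 3 genes with the smallest p per list, and other names were added after seeing values. The platform's gene table gave symbols. Of the 93 nuclear clusters, 90 lay on the chromosome of their gene in RefSeq, 2 (Atp5g2, Atp5l) lay elsewhere and 1 had no record. RefSeq now names Atp5f1 and Atp5sl Atp5pb and Dmac2. Mouse numbers in the labels mark separate animals, and replicate numbers pair nothing across groups. The fits were repeated without the filter, with one at the array's 70th percentile, after quantile normalization, after centring each array on its median, with the level of the hybridisation controls as a covariate, with a replicate block, with the 6 arrays of a day alone, with the mean of a symbol's clusters, and with each array left out in turn.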

Additional observations from a re-analysis of the deposited data

Results flagged for a closer look

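Cox7a1, a muscle form of a complex IV subunit, was on opposite sides of the control mean at the 2 days, although the groups overlapped at 31 d. It had 5.44, 5.41 and 5.60 with MEC1 at 21 d, against 5.12, 5.35 and 5.04 without, and 5.07, 5.17 and 4.88 with MEC1 at 31 d, against 5.48, 5.34 and 5.15 without. Every MEC1 array was above the mean of the controls at 21 d and below it at 31 d, which is why it is listed here. The change was 0.31 at 21 d and -0.28 at 31 d (adjusted p = 0.236 and 0.141, limma), and the 31 d change minus the 21 d change was -0.60, which did not pass over all clusters (adjusted p = 0.344, limma).

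Mitochondrial cluster 28 and Ndufaf3, an assembly factor of complex I, also had every MEC1 array above the control mean at 21 d and below it at 31 d. In both, the groups overlapped at 21 d. Cluster 28 had 7.79, 6.53 and 6.79 with MEC1 at 21 d, against 6.40, 6.60 and 5.64 without, and 5.51, 5.75 and 5.20 with MEC1 at 31 d, against 5.82, 6.71 and 7.31 without. Its change was 0.82 at 21 d and -1.13 at 31 d (adjusted p = 0.261 and 0.0492, limma), and the difference of the changes, -1.95, did not pass (adjusted p = 0.331, limma). Ndufaf3 changed by 0.43 at 21 d and -0.56 at 31 d (adjusted p = 0.309 and 0.0847, limma), with a difference of -0.99 that did not pass (adjusted p = 0.339, limma).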

How the results depend on the processing

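At 31 d, quantile normalization called 9 mitochondrial (2 rises, 7 falls) and 16 nuclear members (6 rises, 10 falls), against 14 and 50 as reported (0 and 2 rises), and centring on the array median gave 18 and 75 falls. Leaving out 1 array gave 9 to 15 mitochondrial and 15 to 58 nuclear calls at 31 d and 0 to 2 of each at 21 d, the 9 without no MEC1 31 d replicate 2. With the brightness of the hybridisation controls as a covariate 0 members passed at either day, and 7 of all tested clusters did at 31 d and 4 at 21 d. Those controls were brighter in every MEC1 array than in every other, so that their level and the presence of MEC1 cannot be told apart in that fit. The mitochondrial minus nuclear difference of medians was 0.45 at 21 d and 0.85 at 31 d there, ranged from -0.19 to 0.11 and from -0.29 to 0.093 when 1 array was left out, and turned to 0.093 at 31 d without no MEC1 31 d replicate 3. The nuclear call at 21 d, Cox7a2l, was lost (0 calls) with no filter, quantile normalization, the covariate, the replicate block and the 6 arrays alone. The replicate block gave 33 nuclear calls at 31 d (2 rises, 31 falls). Same-numbered arrays correlated at 0.36, -0.17 and 0.42 at 21 d and -0.01, 0.16 and 0.02 at 31 d, and they share only a number. Over all tested clusters, calls at 31 d were 8430 rises and 7867 falls as reported, 2785 and 13739 with centring, which shifts all changes down (median change -0.39), 5026 and 5620 after quantile normalization, and 5210 and 5346 without MEC1 31 d replicate 3. The count of members whose MEC1 difference differed between days was 0 in every fit run.

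Single genes whose 31 d change turned sign were, with the covariate, mt-Rnr1 0.10, mt-Rnr2/ND1 0.49, ND2 1.06, COX1 1.80, COX2 2.06, ATP8/ATP6/COX3 2.82, ND3 2.82, ND4/ND4L 1.69, ND5/CYTB 2.21, ND6 4.54, Sdhb 1.18, Sdhd 1.78, Ndufs7 0.30, Uqcrc1 1.28, Cox4i1 1.52, Cox5a 1.11, Cox5b 1.55, Cox6c 0.14, Cox7a2 2.69, Cox8a 1.73, Atp5a1 0.58, Atp5b 1.40, Cox4i2 -0.038, Cox7a2l 0.11, Cox7a1 0.16, Cox6a2 -0.090, cluster 3 1.20, cluster 25 6.01, cluster 18 1.83, cluster 10 2.86, Cox8c -0.59, Ndufb4b 2.96, Ndufa2 3.17, Ndufa9 1.06, Atp5mpl 2.39, Higd2a 0.81, Etfdh 0.41, Higd1a 0.77, Cox20 0.19, Dlst 0.14, Ogdh 0.16, Idh3a 1.31 and Mrpl37 0.71. After quantile normalization they were mt-Rnr2/ND1 0.085, ND6 0.31, Uqcrfs1 0.51, Cox5a 0.16, Cox6c 0.36 and Cox6a2 -0.17, with centring Cox4i2 -0.067 and Cox6a2 -0.22, and without MEC1 31 d replicate 3 COX1 0.083 and ND6 0.64 (range over arrays left out -0.47 to 0.083 and -0.70 to 0.64). Apart from what the construction of a fit shows, the cause was not tested.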
